A study of Mus musculus with 2 samples.

Results

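The cells described here were lung group 2 innate lymphoid cells (ILC2s) that held Txnip transcripts in number and no transcript of the cytokines Il5, Il13 or Il2. They were selected on measured values. Barcodes first had to show 500 or more genes and no more than 10% of UMIs (unique molecular identifiers, each counting 1 captured transcript) from the mitochondrial genome. Of these, a cell was taken when it held at least 3 Txnip UMIs, at most 1 Actn2 UMI, fewer than 5 UMIs of Hspa1a and Hspa1b together, and 0 UMIs of S1pr1, Il5, Il13 and Il2. These Txnip-high cells numbered 515 of 15481 barcodes that passed the 2 quality limits and of 20361 barcodes in all. Cells under the same limits with 0 Txnip UMIs (Txnip-0 cells, 2136 in all) served for comparison.

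The study sorted live ILC2s (Lineage- CD90.2+ ST2+ Sca-1+) from the lungs of WT mice and of Pac1-/- mice, which lack the phosphatase PAC1 encoded by Dusp2 in all cells. The mice were young adults of matched age and sex on the C57BL/6J background. Cells of several mice of a genotype were pooled before droplet capture, so that each genotype had 1 library and cells could not be traced to an animal. The WT library held 56182065 UMIs over 10866 barcodes and the Pac1-/- library 60283285 UMIs over 9495 barcodes, and 29 barcode sequences occurred in both libraries, 1 of them in a Txnip-high cell. Cells are not replicates, so that no p-value was computed, and every 95% interval covers counting error only.

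TXNIP is an alpha-arrestin that binds thioredoxin and limits glucose uptake at the cell surface. Its gene is driven by the glucose sensor MondoA (gene Mlxip) with its partner MLX at carbohydrate response elements and by FOXO factors, and its transcript is known to fall when lymphocytes receive growth or antigen signals. SLFN5 belongs to the Schlafen family of lymphocyte regulators, several of which fall upon T cell activation. ILC2s respond to alarmins and neuropeptides with a wave of immediate-early and NF-kB feedback genes before they secrete cytokines.

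The promoters of Txnip and of Ltb are shown because Txnip chose the cells and Ltb, the gene of lymphotoxin-beta, was among the transcripts most raised in them. Both sequences are from RefSeq (build GRCm38.p6) and end 1 base before the start of the gene in the GENCODE annotation. Capitals mark matches to the letters searched. In Txnip these are the FOXO motif GTAAACA, 121 to 115 bases before the start, and a carbohydrate response element-like pattern (CACGNG, any 5 bases, and CACGNG again), 85 to 69 bases before it. In Ltb these are GTAAACA, 124 to 118 bases before the RefSeq start, and the NF-kB motif, whose reverse complement stands 87 to 78 bases before it.
Txnip, chr3:96557707-96557956, plus strand: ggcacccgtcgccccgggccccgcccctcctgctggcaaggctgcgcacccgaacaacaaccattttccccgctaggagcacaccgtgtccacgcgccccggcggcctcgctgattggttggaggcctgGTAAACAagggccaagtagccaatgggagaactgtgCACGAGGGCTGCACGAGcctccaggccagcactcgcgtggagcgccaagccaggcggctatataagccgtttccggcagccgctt
Ltb, chr17:35194257-35194438, plus strand: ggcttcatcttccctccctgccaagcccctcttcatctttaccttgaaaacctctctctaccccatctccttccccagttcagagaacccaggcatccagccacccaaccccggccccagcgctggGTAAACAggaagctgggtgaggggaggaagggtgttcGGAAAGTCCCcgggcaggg
Over 32851 promoters of 300 bases, read on both strands, the carbohydrate response element-like pattern stood in 16 (0.0487%), the FOXO motif in 1199 (3.65%) and the NF-kB motif in 51 (0.155%). The matches in the sequences shown do not overlap. Of the 36 genes higher in both libraries below, 27 had a promoter in the table, and Ltb was among 3 of these with the FOXO motif and the only 1 with the NF-kB motif. Of the 72 lower genes, 57 had a promoter, 2 of them with the FOXO motif and 0 with the NF-kB motif. Over the 1690 genes compared that had a promoter, 3.25% held the FOXO motif, 0.533% the NF-kB motif and 3 genes the carbohydrate response element-like pattern, which stood in 0 of the 27 higher and 0 of the 57 lower genes. Other motifs were searched too. The cyclic AMP response element TGACGTCA stood in 3 higher and 4 lower genes (4.26% of those compared). The E-box CACGTG stood in 1 and 5 (12.2%), and the NR4A motif AAAGGTCA in 0 and 0 (0.947%). A match describes letters in a window and shows neither a bound site nor a cause.

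The cells carried the ILC2 program of the sort. At least 1 UMI of Gata3, the master factor of the lineage, or of Il1rl1, which encodes ST2, was held by 98.4% of WT and 98.5% of Pac1-/- Txnip-high cells, and their median of ILC2 marker UMIs was 28 and 30. Of the 8 cells with neither transcript, 3 were WT and 5 Pac1-/-. Defining myeloid markers were found in at most 1.6% of cells in any group. T cell marker UMIs (a list with T cell receptor constant and Cd3 genes, some of which ILC2s also transcribe) were found in 85.1% of WT and 90.3% of Pac1-/- Txnip-high cells, against 86.7% and 88.7% of depth-matched Txnip-0 cells. B cell marker UMIs were found in 28.7% of WT and 34.3% of Pac1-/- Txnip-high cells against 24.9% and 23.3%, and reached 3 in 4 and 13 cells. Erythroid transcripts were found in 24.9% of Pac1-/- Txnip-high cells and 10.0% of their comparison cells, of which 1 alone held 1895 such UMIs. Their summed B cell marker level was 85.5 CPM in WT and 142 in Pac1-/- Txnip-high cells, against 68.4 and 91.5 (CPM, UMIs per 1000000 UMIs outside the 8 genes of the rule). NK cell, mast cell, epithelial and stromal markers were found in 4.42 to 18.4% of Txnip-high and 4.42 to 16.5% of Txnip-0 cells.

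Txnip itself is given as a description, since it chose the cells. In the WT library 185 cells were Txnip-high, 2.20% of the 8394 barcodes kept (95% interval 1.90 to 2.54%), and in the Pac1-/- library 330 were, 4.66% of 7087 (4.18 to 5.17%). Their median was 4 Txnip UMIs in WT and 5 in Pac1-/-, with a highest value of 14 and 22. At the threshold, 91 WT and 103 Pac1-/- cells held 3 Txnip UMIs, and 155 and 203 cells under the same limits were left out with 2. The limits other than Txnip left 2018 WT and 1779 Pac1-/- cells (eligible cells), of which 9.17% and 18.5% were Txnip-high. Most cells with 3 or more Txnip UMIs did not meet the limits, 1478 WT and 2546 Pac1-/- barcodes holding that many. The heat shock limit excluded 60.6% of these in WT and 71.4% in Pac1-/-, and the Il5 limit 64.3% and 44.9%. Of all kept barcodes the heat shock limit excluded 2858 of 8394 in WT and 46.8% in Pac1-/-, and the Il5 limit 53.1% and 39.5%. Over all kept barcodes the Txnip level was 206 CPM in WT (203 to 210) and 380 CPM in Pac1-/- (375 to 385).

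A threshold on raw counts takes more cells where cells are deep, and the Pac1-/- library was deeper (median 5577 against 4186.5 UMIs per kept barcode). At equal depth the share of eligible cells that were Txnip-high was 11.4% in WT (9.07 to 14.1%) and 14.8% in Pac1-/- (11.5 to 18.7%) between 3000 and 4000 UMIs. Between 4000 and 5000 UMIs it was 14.8% (10.9 to 19.5%) and 19.7% (16.1 to 23.6%). Between 5000 and 6000 UMIs it was 12.7% (5.65 to 23.5%, 63 cells) and 32.2% (26.9 to 37.9%, 295 cells), and between 6000 and 8000 UMIs 22 of 88 WT cells and 24.6% of 126 Pac1-/- cells were Txnip-high. The Pac1-/- share was thus above the WT share with intervals apart only in the bins of 1000 to 2000 and of 5000 to 6000 UMIs, and the bins at 6000 UMIs and above showed no such gap. The Txnip level over all eligible cells of a bin lay between 177 and 240 CPM in WT and between 272 and 619 CPM in Pac1-/-. Every kept barcode of 3000 or more UMIs was also thinned to 3000 UMIs, and all limits of the rule were applied anew. Then 1.84% of 6528 WT and 4.48% of 6252 Pac1-/- barcodes met the rule. These are shares of kept barcodes and not of eligible cells. Cells that failed the heat shock limit or a cytokine limit at full depth could pass after thinning. The difference between genotypes had no replicate.

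**Figure D1:**
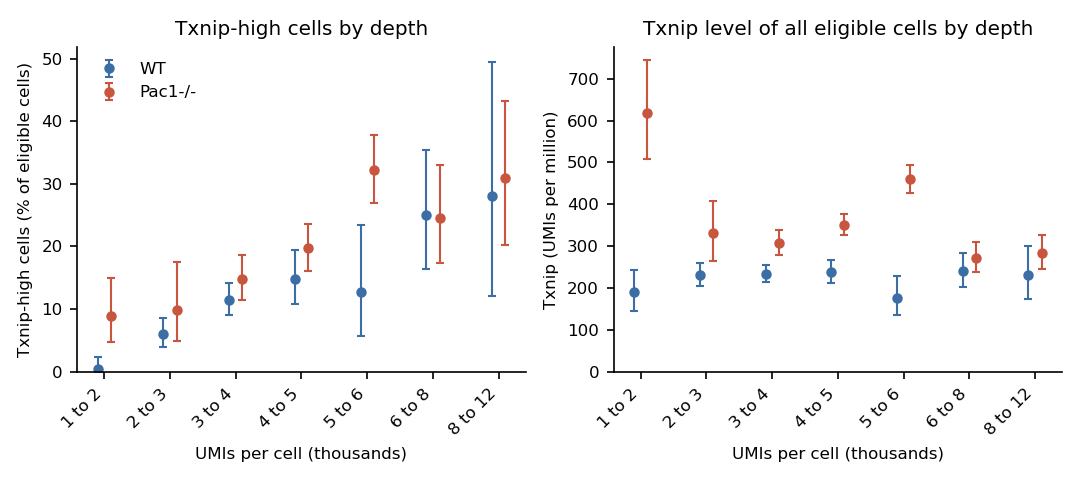
Share of eligible cells that were Txnip-high (left, %) and Txnip level over all eligible cells (right, CPM) by depth of the cell in units of 1000 UMIs, for the WT and the Pac1-/- library. Points are values and bars 95% intervals from counting error. Deep cells had a higher share than shallow cells in both libraries. The Pac1-/- share lay above WT below 6000 UMIs (32.2% against 12.7% at 5000 to 6000) and beside it from 6000 to 8000 (24.6% of 126 cells against 22 of 88).

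Under the heat shock, Actn2 and other limits and at like depth, Txnip was lower in ILC2s that held Il5 or Il13. This is given as a description, since Txnip, Il5 and Il13 are all genes of the rule. In the depth window between the lower and upper quartile of Txnip-high cells (3197 to 4696 UMIs in WT), eligible cells carried 239 CPM of Txnip (221 to 258) and Il5- or Il13-positive cells under the same other limits 160 CPM (147 to 174). In Pac1-/- the values were 384 (363 to 406) and 204 CPM (184 to 225). The intervals were apart in both libraries. Over all kept barcodes, with depth not matched and no other limit, the relation ran the other way. There, Il13 was held by 40.1% of WT cells with 3 or more Txnip UMIs against 28.8% of all WT cells, and by 25.7% against 21.4% in Pac1-/-. S1pr1-positive cells without cytokine transcripts, which the rule also leaves out, numbered 23 in WT and 19 in Pac1-/- under the remaining limits, too few for a comparison of genes.

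Txnip-high cells were then compared with Txnip-0 cells of the same library, matched 1 to 1 on UMIs outside the 8 genes of the rule, with 181 pairs in WT and 309 in Pac1-/-. Levels are in CPM. At equal depth (median 3723 UMIs in both groups in WT, 4736 and 4729 in Pac1-/-) the Txnip-high cells had more detected genes, with a median of 1563 against 1357 in WT and 1873 against 1637 in Pac1-/-. Their mitochondrial share was 2.60% against 2.47% and 3.42% against 3.29%. Of 2130 genes with at least 100 UMIs over the pairs of each library, 36 were at least 1.5-fold higher in Txnip-high cells in both libraries (1.69%) and 72 at least 1.5-fold lower in both (3.38%). The median log2 ratio of all genes was 0.07 in WT and 0.12 in Pac1-/-. Only 1 gene passed the fold in opposite directions. With each library scaled to that median, 18 genes were higher and 103 lower, so that the lower genes were 85.1% of those called in place of 66.7%. The balance turned with the minimum count, since at 50 UMIs 128 genes were higher and 97 lower, and within 1 library more genes were higher than lower (148 and 103 in WT, 151 and 141 in Pac1-/-). Without cells rich in markers of other cell types, 38 genes were higher and 80 lower.

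**Figure D2:**
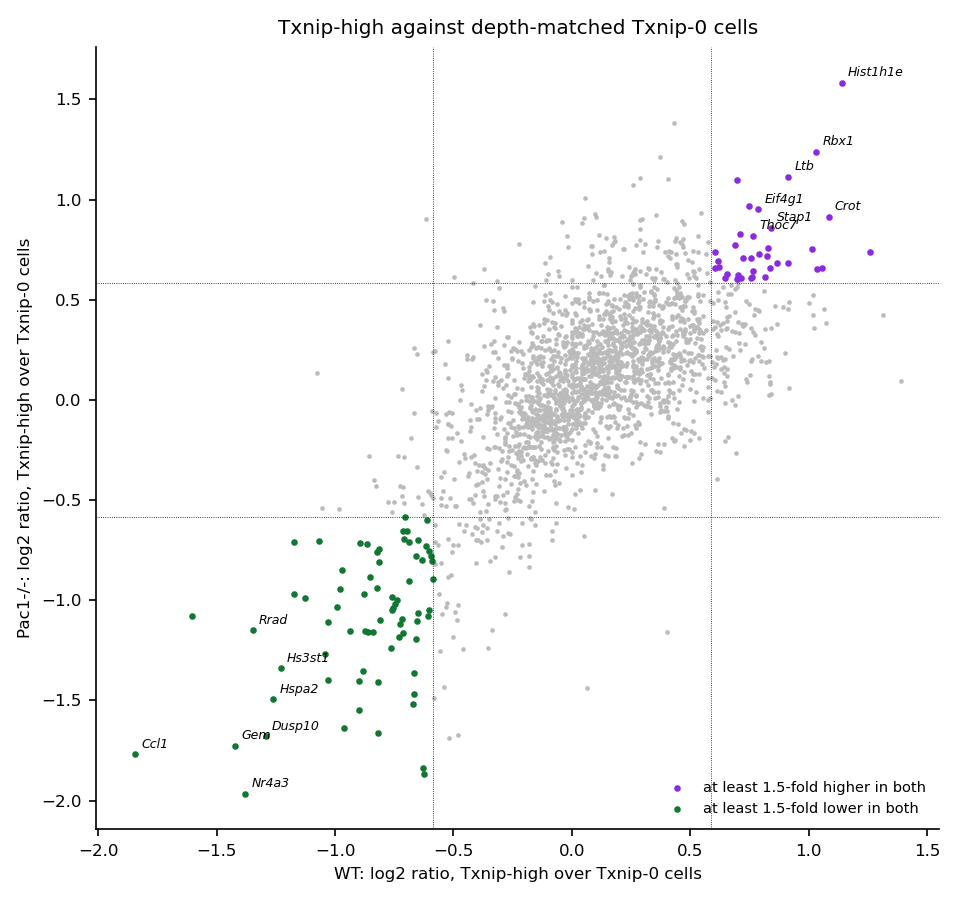
Log2 ratio of Txnip-high over depth-matched Txnip-0 cells for each of the 2130 genes compared, WT on the horizontal and Pac1-/- on the vertical axis. Dotted lines mark 1.5-fold, purple the 36 genes higher in both libraries and green the 72 lower in both. The lower genes reach down to -1.85 in WT (Ccl1) and -1.96 in Pac1-/- (Nr4a3).

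Ccl1 and the 3 NR4A genes stood lower in Txnip-high cells of both libraries. By the weaker library, the first of the lower genes was Ccl1, a chemokine secreted by activated type 2 lymphocytes. Its level was 187 CPM in WT Txnip-high cells against 671 in Txnip-0 cells, and 105 against 357 in Pac1-/- (log2 ratio -1.85, 95% interval -2.12 to -1.57, and -1.77, -2.03 to -1.51). Nr4a3, an orphan nuclear receptor induced by antigen receptor and cyclic AMP signals, stood at 204 against 530 CPM in WT and at 69 against 268 in Pac1-/-. Its relatives moved with it, Nr4a1 by -0.96 and -1.64 and Nr4a2 by -0.90 and -1.55. In each of these genes the intervals lay below 0 in both libraries.

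Other named genes among the lower encode enzymes and signaling proteins. Gem and Rrad, small GTPases of the RGK family that restrain calcium channels, had log2 ratios of -1.42 and -1.73 (Gem) and of -1.35 and -1.15 (Rrad). In WT Txnip-high cells, 1 cell gave 18.9% of the 37 Gem UMIs and 1 cell gave 20.8% of the 48 Rrad UMIs. Dusp10, a phosphatase of p38 and JNK, had -1.29 and -1.68. Hs3st1, a heparan sulfate sulfotransferase, had -1.23 and -1.34, and Tiparp, an ADP-ribosyltransferase of the aryl hydrocarbon receptor pathway, -0.99 and -1.04. Hspa2, a heat shock protein outside the rule, had -1.26 and -1.49, but 30.3% of its 33 UMIs in WT Txnip-high cells came from 1 cell. Tuba4a (-1.61 and -1.08), Dgat1, an enzyme of triglyceride synthesis (-1.04 and -1.27), Vps37b, a subunit of the ESCRT-I sorting complex (-1.03 and -1.40) and the Kruppel factor Klf4 (-1.03 and -1.11) completed the 12 named. With only cells of 5 or more Txnip UMIs as Txnip-high, Dgat1 reversed (0.10 in the weaker library) and Rrad no longer passed the fold (-0.14).

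3 lists of stimulation genes stood below the genes as a whole in both libraries. Of 16 immediate-early genes compared, 7 were lower in both libraries and 1 higher, against 3.38% and 1.69% of all genes. The median log2 ratio was -0.45 in WT and -0.65 in Pac1-/- (-0.38 when matched on detected genes), against 0.07 and 0.12 over all genes. Fosb, Fosl2, Atf3 and Egr3 were among the lower, with Fosl2 at 455 against 771 CPM in WT and 233 against 481 in Pac1-/-. Egr1 went the other way, at 267 against 174 CPM in WT (log2 ratio 0.62, 0.30 to 0.95) and 192 against 121 in Pac1-/- (0.66, 0.39 to 0.94). The share of cells that held Egr1 was 37.6% against 29.8% in WT, but 28.2% against 31.7% in Pac1-/-. Jun, a subunit of AP-1, had a ratio of 0.01 in WT and -0.55 in Pac1-/-. Hspa1a and Hspa1b, heat shock genes that are part of the rule, were not equal between the groups within their limit, Hspa1b standing at 133 against 87 CPM in WT and at 121 against 89 in Pac1-/-, and the part of this difference in the list was not tested.

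Of 10 NF-kB genes compared, 3 were lower in both libraries and none higher, against 3.38% and 1.69% of all genes. The list medians were -0.47 and -0.86. The 3 lower genes were Nfkbiz (542 against 995 CPM in WT, 486 against 952 in Pac1-/-) and Nfkbid, which encode nuclear IkB proteins, and Rel, which encodes the subunit c-Rel (-0.84 and -1.16). Nfkbia, the inhibitor IkB-alpha, had -0.46 in WT and -1.24 in Pac1-/-, and Tnfaip3, the feedback inhibitor A20, had -0.48 and -1.10. Birc3 lay near 0 in both (-0.10 and -0.04).

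Of 13 effector and activation genes compared, 4 were lower in both and none higher, against 3.38% and 1.69% of all genes. The list medians were -0.53 and -1.01. The WT median was -0.33 without predicted doublets, and the Pac1-/- median -0.49 when matched on detected genes. Besides Ccl1 the lower genes were Areg, Cxcl2 and Bhlhe40. Areg encodes amphiregulin, the tissue repair factor of ILC2s, and stood at 229 against 354 CPM in WT and at 174 against 622 in Pac1-/-. Cxcl2, a neutrophil chemokine, stood at 619 against 955 and at 360 against 1317. Bhlhe40, a factor required for cytokine output in T cells, had -0.75 and -1.02. Csf2, Tnf, Furin, Rgs2 and Cd69 had ratios below 0 in both libraries with intervals below 0, from -0.26 (Cd69, WT) to -1.25 (Furin, Pac1-/-), without passing the fold in both. Il5, Il13 and Il2 were fixed at 0 by the rule and carry no result, and whether the other cytokines were low through that choice was not tested.

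The list for the response to the neuropeptide CGRP (calcitonin gene-related peptide) was chosen with the study's question in view. Of its 5 genes compared, 2 were lower in both, against 3.38% of all genes. The list medians were -0.69 and -0.29, against 0.07 and 0.12 over all genes. The 2 lower genes were Crem (150 against 315 CPM in WT, 95 against 155 in Pac1-/-), a repressor induced by cyclic AMP, and Lmo4, a LIM-domain cofactor (715 against 1153 and 428 against 801). Calca, which encodes CGRP itself, stood at 204 against 333 in WT and at 129 against 157 in Pac1-/-. Icos, a costimulatory receptor, had -0.45 and -0.29, and Gpr65, a proton-sensing receptor, -0.34 in WT and 0.28 (-0.02 to 0.58) in Pac1-/-. Ramp3, which encodes a receptor activity modifying protein that partners calcitonin receptor-like receptors, was also among the lower genes (-1.17 and -0.97).

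The list of ILC2 identity genes had medians of 0.15 and 0.14, against 0.07 and 0.12 over all genes. Of 13 genes compared, 2 were lower in both and none higher, against 3.38% and 1.69% of all genes. Gata3 stood at 897 against 940 CPM in WT and at 796 against 797 in Pac1-/-, and Il1rl1 at 1057 against 998 and 973 against 886. The 2 lower genes were Rora, the nuclear receptor needed for ILC2 development (1257 against 2065 and 787 against 1679), and Hes1, a Notch target (296 against 466 and 74 against 159). Id2, the inhibitor of E proteins that all innate lymphoid cells need, had 0.47 and 0.51, and Ly6a, which encodes Sca-1, 0.46 and 0.89, without passing the fold in both.

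**Figure D3:**
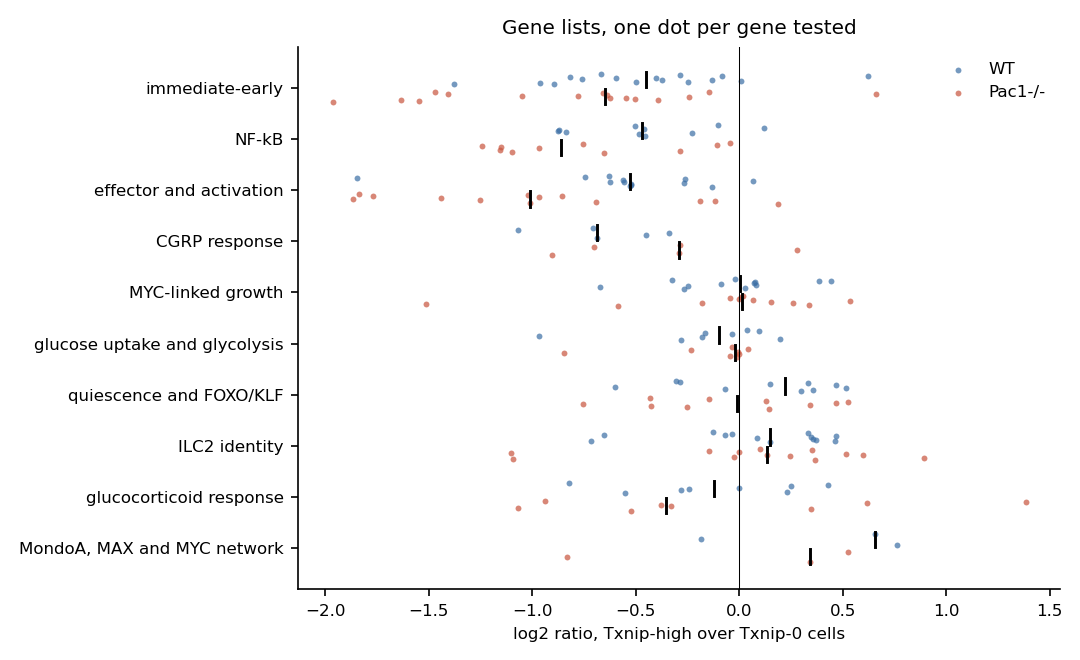
Log2 ratio of Txnip-high over Txnip-0 cells for genes of 10 lists, WT and Pac1-/- apart. Each dot is a gene compared and each black bar the median of the list. Immediate-early, NF-kB and effector lists lie to the left (medians -0.45, -0.47 and -0.53 in WT; -0.65, -0.86 and -1.01 in Pac1-/-), and ILC2 identity genes lie around 0 (0.15 and 0.14).

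Genes of the Txnip pathway itself were sparse. Arrdc4, the alpha-arrestin that shares the MondoA control of Txnip, had 8 against 4 UMIs in WT and 24 against 14 in Pac1-/-, too few to read. Arrdc1 had 39 against 16 UMIs in WT (1.28, 0.41 to 2.22) and 48 against 37 in Pac1-/- (0.37, -0.27 to 1.03). Arrdc2 had 11 against 1 and 13 against 9 UMIs, and Arrdc3 10 against 2 and 7 against 7. Mlxip, which encodes MondoA, stood at 41 against 42 CPM in WT and 36 against 35 in Pac1-/-. Of the 3 genes of the MondoA, MAX and MYC network compared, none passed the fold in both. Mga and Mxd4, partners of MAX, had log2 ratios of 0.66 and 0.53 (Mga) and of 0.76 and 0.34 (Mxd4). The third, Mxd1, had -0.18 in WT and -0.83 (-1.25 to -0.42) in Pac1-/-. Myc was below the minimum of 100 UMIs and had 27 against 63 UMIs in WT (-1.22, -1.93 to -0.55) and 46 against 115 in Pac1-/- (-1.32, -1.85 to -0.82).

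Of 8 glycolytic enzymes compared, 1 was lower in both and none higher, against 3.38% and 1.69% of all genes. The list medians were -0.10 and -0.02, against 0.07 and 0.12 over all genes. The enzyme lower in both was Hk2, the inducible hexokinase, at 60 against 118 CPM in WT and 27 against 48 in Pac1-/-. Aldoa, Eno1, Gpi1, Ldha and Pgk1 lay between -0.18 and 0.20 in both libraries, and Gapdh had -0.16 in WT and -0.24 (-0.40 to -0.08) in Pac1-/-. Pkm, pyruvate kinase, had -0.28 and -0.011. In Pac1-/- 7 of the 8 had ratios below 0. Thioredoxin (Txn1), the partner of TXNIP, had 0.31 (-0.03 to 0.66) in WT and 0.29 (0.07 to 0.52) in Pac1-/-. Of 12 growth genes linked to MYC, 1 was lower in both, Odc1, the first enzyme of polyamine synthesis (329 against 524 and 186 against 533 CPM), and the list medians were 0.00 and 0.01. Of 76 cytosolic ribosomal protein genes, 75 had ratios below 0 in both libraries and none passed the fold (medians -0.12 and -0.11).

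Slfn5, which was named with Txnip as a marker of these cells and is given as a description, was higher in both libraries. It had fewer than 100 UMIs in WT and was no part of the counts above. There were 58 Slfn5 UMIs in WT Txnip-high cells against 24 in matched Txnip-0 cells (76.3 against 31.6 CPM, log2 ratio 1.27, 0.56 to 2.02). In Pac1-/- it had 143 against 62 UMIs (96.2 against 41.7 CPM, 1.21, 0.77 to 1.66), and its ratio there was 0.72 when matched on detected genes. No single cell gave more than 8.33% of these UMIs in any group. Other Schlafen genes were uneven, Slfn2 at 0.08 in WT and 0.77 in Pac1-/-, and Slfn8 at 0.65 and -0.08, both in WT with intervals that span 0.

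The genes higher in Txnip-high cells were a mixed set. Ltb had the most UMIs of the 12 named, at 594 against 316 CPM in WT (log2 ratio 0.91) and 1072 against 495 in Pac1-/- (1.11). Hist1h1e, a linker histone, ranked first, at 128 against 57.9 and 101 against 33.6 CPM (1.14 and 1.58). Rbx1, the RING subunit of cullin ubiquitin ligases, had 1.03 and 1.24, Crot, a peroxisomal acyltransferase, 1.08 and 0.92, and Stap1, a signaling adaptor, 0.84 and 0.86. Spn, which encodes the surface sialoglycoprotein CD43, had 1.26 and 0.74, and Pik3r1, the regulatory subunit of PI3 kinase, 0.75 and 0.97. The others served general functions, namely Eif4g1 (translation), Thoc7 (RNA export), Chmp2a (ESCRT-III), Vcp (protein segregase) and Aqr (splicing). Matching on detected genes in place of UMIs left 13 genes higher in both libraries, 9 of them among the 36, and ended the calls of Eif4g1, Thoc7, Chmp2a, Vcp, Pik3r1, Spn and Aqr, so that more detected genes per UMI moved with this set. The set also changed in other alternatives, with 16 of the 36 called against all Txnip-0 cells weighted by depth, 17 against cells with 0 or 1 Txnip UMI, 19 without predicted doublets and 1 with Txnip-high cells taken from 5 UMIs, where 577 genes had enough UMIs to be compared. The ratios of Hist1h1e, Ltb and Crot stayed past the fold in every alternative tried for single genes, which did not ask for the minimum count again.

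Of 10 genes of quiescence and the FOXO and KLF factors compared, none was higher in both libraries and 1 was lower, Irs2 (-0.60 and -0.75). Over all genes, 1.69% were higher and 3.38% lower in both. Il7r, which encodes the IL-7 receptor and is a known FOXO1 target, stood at 1032 against 746 CPM in WT and 1469 against 1062 in Pac1-/- (0.47 in both). Klf2 was sparse, at 53 against 47 CPM and 114 against 130, and Btg1, an antiproliferative factor, lay below 0 (-0.31 and -0.43). Bcl2, the survival factor downstream of IL-7, had 0.35 and 0.49 with intervals above 0. Of 8 glucocorticoid response genes compared, 1 was lower in both, Cebpb, a bZIP factor (-0.82 and -0.94), and none was higher, with medians of -0.12 and -0.35. Ddit4, an inhibitor of mTORC1, had 0.43 in WT and 1.38 (0.85 to 1.94) in Pac1-/-, and Fkbp5, a co-chaperone of the glucocorticoid receptor, 0.25 and 0.62. None of the 4 progenitor-like genes, the 4 survival genes or the 13 mitochondrially encoded genes compared passed the fold in both libraries, and no interferon response gene reached 100 UMIs in both libraries.

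Levels were also read by the number of Txnip UMIs, as a description, since the first and the last 3 steps hold cells of the groups compared above. Eligible cells in the same depth window were grouped by their Txnip count (0, 1, 2, 3, 4 to 5, and 6 or more). In WT, Nr4a1 stood at 1568, 1298, 829, 797, 491 and 509 CPM over these steps. In Pac1-/- it stood at 950, 733, 566, 306, 379 and 181 CPM. Cells with 2 Txnip UMIs, just outside the rule, lay beside those with 3 in WT (829 and 797) and above them in Pac1-/- (566 and 306). Gadd45b, a stress- and NF-kB-induced gene, went from 2286 to 531 CPM in WT and from 2138 to 451 in Pac1-/- between the first step and the last. Ltb went from 345 to 818 and from 518 to 1234, and Il7r from 730 to 1238 and from 1090 to 1596. Neighbouring steps did not all follow that order, as Nr4a1 in Pac1-/- (306, then 379 CPM), Ltb in WT (457, then 405) and Il7r in WT (1190, then 1068) show. Gata3 ranged from 659 to 897 in WT, with its lowest value at 2 Txnip UMIs, and from 717 to 821 in Pac1-/-. Il1rl1 ranged from 939 to 1212 in WT and from 842 to 1048 in Pac1-/-. Egr1 was at 171 to 275 CPM in WT up to 5 Txnip UMIs and at 730 in the 12 cells of the last step, and at 112 to 227 in Pac1-/-. The median of detected genes also climbed, from 1348 to 1557.5 in WT and from 1649.5 to 1952 in Pac1-/-.

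**Figure D4:**
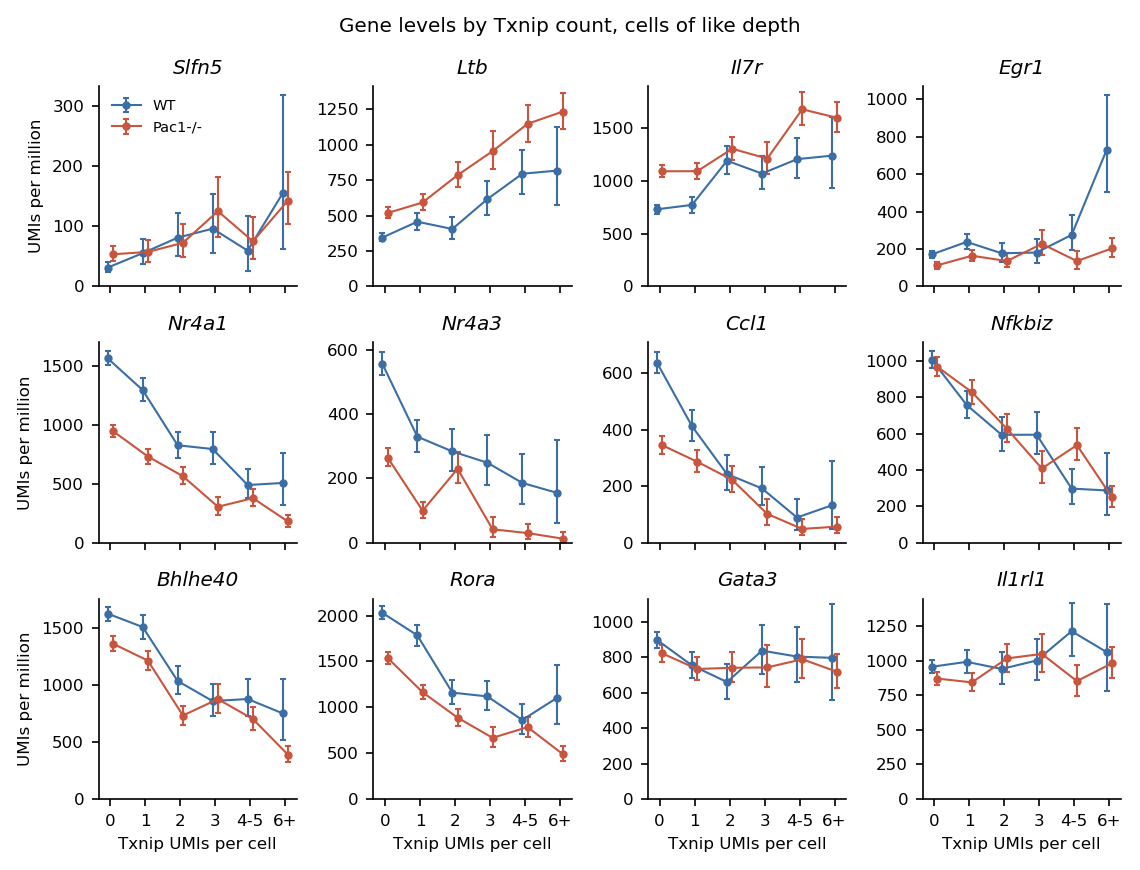
Level of 12 genes (CPM) by the number of Txnip UMIs in the cell, among eligible cells of like depth in each library. Points are sums over cells and bars 95% Poisson intervals. Nr4a1 (in WT from 1568 to 509 CPM), Nr4a3, Ccl1, Nfkbiz, Bhlhe40 and Rora are lower at the last step than at the first in both libraries. Ltb and Il7r are higher, and neighbouring steps do not all follow that order.

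The same contrast was made in cells that the rule leaves out and that share no cell with the pairs above, though they share the libraries. These groups were chosen after the data were seen. Among cells with 5 or more Hspa1a and Hspa1b UMIs and no Il5, Il13 or Il2 (144 WT and 229 Pac1-/- pairs), 5 of 1981 genes were at least 1.5-fold higher with Txnip in both libraries (0.252%) and 33 lower (1.67%). Of the 72 lower genes, 64 were compared there, 62 had ratios below 0 in both libraries, against 26.4% of all genes, and 20 passed the fold again. Among these 20 were Nr4a1, Nr4a2, Nr4a3, Ccl1, Gem, Areg, Cxcl2, Rel, Crem and Rora. Of the 36 higher genes, 32 were compared, 23 had ratios above 0 in both libraries, against 35.4% of all genes, and 2 passed the fold again (Hist1h1e and Tbc1d10c). Egr1, which was higher in the rule's cells, was below 0 there (-0.24 and -0.25).

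Among Il5- or Il13-positive cells under the other limits (221 WT and 159 Pac1-/- pairs), 34 of 2877 genes were higher in both (1.18%) and 7 lower (0.243%). Of 71 of the lower genes compared there, 66 had ratios below 0 in both libraries, against 26.2% of all genes, but only 4 passed the fold again (Dgat1, Gch1, Gem and Ramp3). The medians of 3 lists there were nearer 0 than in the rule's cells, at 0.04 in WT and -0.21 in Pac1-/- for immediate-early genes, -0.21 and -0.55 for NF-kB genes and -0.29 and -0.37 for effector genes. In the Hspa1-high cells they were -0.21 and -0.25, -0.21 and -0.47, and -0.28 and -0.34. The CGRP response list had -0.56 and -0.48 in Il5- or Il13-positive cells and -0.77 and -0.53 in Hspa1-high cells, farther from 0 in Pac1-/- than in the rule's cells. In Il5- or Il13-positive cells Nr4a1 had -0.29 in WT and -1.25 in Pac1-/-, and Ccl1 -0.45 and -0.24. Of 32 of the higher genes, 27 had ratios above 0 in both, against 44.8% of all genes, and 5 passed the fold again, with Egr1 and Stap1 among them. Slfn5 had 73 against 41 UMIs in WT (0.83, 0.26 to 1.42) and 54 against 27 in Pac1-/- (95% interval of the log2 ratio 0.31 to 1.72). In the Hspa1-high cells it had 70 against 33 UMIs in WT (1.08, 0.47 to 1.73) and 121 against 89 in Pac1-/- (0.44, 0.03 to 0.85). Ltb had ratios from 0.36 to 0.76 over these cells and libraries.

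**Figure D5:**
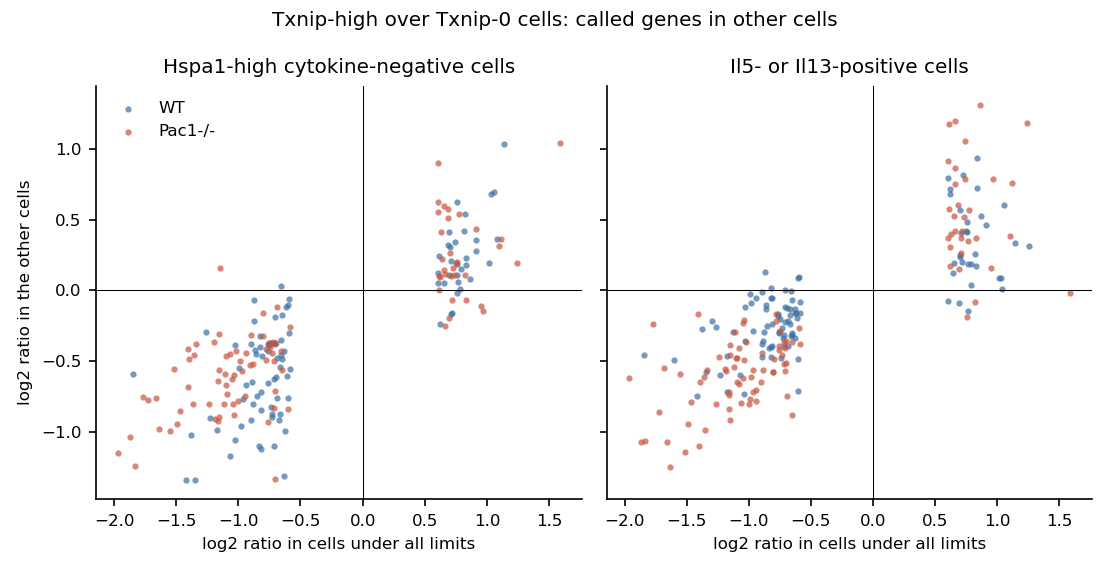
Log2 ratio of Txnip-high over Txnip-0 cells for the genes called in cells under all limits (horizontal axis), against the same ratio in Hspa1-high cytokine-negative cells (left) and in Il5- or Il13-positive cells (right), for WT and Pac1-/-. Each dot is 1 gene in 1 library. In both panels most genes on the left of the vertical line lie below the horizontal line (62 of 64 and 66 of 71 lower genes in both libraries).

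Txnip-high cells of the genotypes were compared last, with 1 library each and no test. All 185 WT and 330 Pac1-/- Txnip-high cells were used here, with or without a partner, so that their levels differ from those given above for paired cells. The Txnip-0 cells beside them were the matched ones. Dusp2, the deleted gene, had 17 UMIs in WT Txnip-high cells and 0 in Pac1-/- (at least 12.2-fold lower, taking 3 counts as the limit of a count of 0). In the 181 paired WT Txnip-high cells its 14 UMIs were held by 7 cells (3.87%), and 1 cell gave 50% of them. Of 3686 genes with at least 100 UMIs over both libraries, 458 were at least 1.5-fold higher in Pac1-/- Txnip-high cells (12.4%) and 329 at least 1.5-fold lower (8.93%). In the matched Txnip-0 cells, 181 and 204 of these also passed the fold in the same direction. The share of all 3686 genes that passed it in Txnip-0 cells is not given, so this overlap has no background to be read against. Scaled by the median ratio, the counts were 333 and 426, and with the libraries' Txnip-high cells matched on UMIs (146 each) they were 183 and 243 of 2071 genes. The higher genes were 58.2% of those past the fold as first counted, 43.9% after scaling and 43.0% after matching.

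The genes with the largest differences stood apart in Txnip-0 cells as well. Among the 8 most raised, Zfp990 and Igkc had 0 UMIs in WT and 112 each in Pac1-/- (at least 17.3-fold higher, by the same limit). Igkc encodes the immunoglobulin kappa constant region. Of the B cell marker list, Cd79a had 0 UMIs in WT and 16 in Pac1-/-, and Ighm 64 and 195. The source of the Igkc UMIs was not tested. Mmp16, a membrane metalloproteinase, stood at 3.71 CPM in WT and 81.4 in Pac1-/-, and at 1.32 and 72.0 in Txnip-0 cells. Lgals3, galectin-3, stood at 16.1 and 97.5, and at 6.58 and 50.5 in Txnip-0 cells. The predicted genes Gm47015 and Gm11808 and Rps27rt, a copy of the ribosomal protein gene Rps27, were also among them. Genes with near-identical copies are uncertain, since the counting can split their reads. Cd74, the invariant chain of antigen presentation, stood at 7.42 and 65.9 CPM but lost its direction without cells rich in markers of other cells (-0.083). Lower in Pac1-/- were the predicted genes Gm43305, Gm10076 and Gm42031, Hist2h2aa1, mt-Atp8, Hes1 and Klf10. Hes1 stood at 351 and 78.0 CPM in all Txnip-high cells, 296 and 74.0 in the paired ones, and 466 and 159 in Txnip-0 cells. Klf10, a TGF-beta-induced factor, stood at 212 and 51.0 in all Txnip-high cells against 155 and 60.5. A difference between the libraries cannot be told apart from one between the genotypes.

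Areg, Cxcl2 and Nfkbia ordered the genotypes differently in the 2 kinds of cell. They are named after their values were seen, and none of them passed 1.5-fold in both kinds of cell. Other genes ordered the genotypes differently too, among them Cxcl1 (log2 ratio -1.37 in Txnip-high and 0.49 in Txnip-0 cells), Tnfaip3 (-0.35 and 0.14) and Jun (-0.12 and 0.33). Areg stood at 354 CPM in WT and 622 in Pac1-/- Txnip-0 cells (log2 ratio 0.81, 0.61 to 1.01). It stood at 255 and 186 in all Txnip-high cells (-0.46, -0.71 to -0.20) and at 229 and 174 in the paired ones. Cxcl2 stood at 955 and 1317 in Txnip-0 cells (0.46, 0.34 to 0.59) and at 694 and 372 in Txnip-high cells (-0.90, -1.06 to -0.73). Nfkbia stood at 2632 and 3373 (0.36, 0.28 to 0.43) and at 1995 and 1620 (-0.30, -0.39 to -0.21). With Pac1-/- Txnip-high cells matched to WT on UMIs, the ratios in Txnip-high cells were -0.84, -0.78 and -0.28. The log2 ratio of Txnip-high over matched Txnip-0 cells was lower in Pac1-/- than in WT by a difference of -1.21 for Areg (-1.55 to -0.87), -1.24 for Cxcl2 (-1.46 to -1.03) and -0.78 for Nfkbia (-0.90 to -0.66). These intervals cover counting error only, and with 1 library a genotype there was no test across samples. The groups also differed in Txnip itself, 28 of 185 WT and 123 of 330 Pac1-/- Txnip-high cells holding 6 or more Txnip UMIs. In the depth windows read by Txnip count, Areg was higher in WT at 3 Txnip UMIs (430 against 144 CPM). It was lower in WT at 4 to 5 (67 against 120) and at 6 or more (44, from 2 UMIs, against 178). Cxcl2 and Nfkbia were higher in WT at each of these steps. The part of the Txnip count in these differences was not tested. Nr4a1 was lower in Pac1-/- in both (-1.03 in Txnip-high and -0.54 in Txnip-0 cells), and Nr4a2 had -0.79 and -0.10. Ltb was higher in Pac1-/- in both (0.83 and 0.65), as was Il7r (0.51 and 0.51). Klf2 stood at 49.5 and 135 CPM in all Txnip-high cells, 52.6 and 114 in the paired ones, and 47.4 and 130 in Txnip-0 cells. Slfn5 was at 71.8 and 88.3 CPM in all Txnip-high cells (0.30, -0.15 to 0.76), an interval that spans 0, and the ratio was 1.21 with Txnip-high cells taken from 5 UMIs.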

How the data were processed

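The deposited matrices, 1 for each library, hold whole-number UMI counts that the authors obtained with Cell Ranger (10x Genomics 3′ v3.1 chemistry, mm10). The submitters' processing notes name version 6.1.1 and the file header 4.0.0. No normalization had been applied. The cells, the gene lists and the comparisons were chosen with earlier results of these data known.

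Txnip-high cells were paired without replacement, in seeded random order (seed 7), with the Txnip-0 cell nearest in UMIs outside the 8 genes of the rule, within 5%; 4 WT and 21 Pac1-/- cells had no partner. UMIs were summed over cells. Ratios carry exact conditional binomial intervals, shares Clopper-Pearson intervals and levels exact Poisson intervals, all at 95%. A gene was called at 1.5-fold or more in the same direction in both libraries. Named were the 12 highest and 12 lowest called genes by the weaker library, list members past the fold (from lists with none, the 2 most abundant), and the 8 highest and 8 lowest genes between genotypes by the interval bound nearest 0, of which 1 is not reported here. Further list genes were named after their values were seen. Doublets were not removed in the main comparison; in an alternative 8.70% of WT and 7.59% of Pac1-/- barcodes were removed as predicted doublets. The contrast was first run on simulated counts with known changes. Genes were placed on GRCm38 with GENCODE M21. Python 3.11.15, numpy 2.4.6, scipy 1.17.1, pandas 2.3.3 and scikit-learn 1.9.0 were used. Cells with many UMIs of other cell types, pairs thinned to equal UMIs and the cells outside the rule were examined after the data were seen.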

Additional observations from a re-analysis of the deposited data

Results flagged for a closer look

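3 genes had opposite log2 ratios of Txnip-high over Txnip-0 cells in the libraries, each with both intervals away from 0. Dnaja1, a co-chaperone of the HSP70 system, had -0.31 in WT (561 against 696 UMIs, -0.48 to -0.15) and 0.21 in Pac1-/- (984 against 851 UMIs, 0.08 to 0.34). Clec2d, a C-type lectin ligand of an NK cell receptor, had -0.62 in WT (45 against 69 UMIs) and 0.90 in Pac1-/- (101 against 54 UMIs). Zup1, a deubiquitinase, had 0.61 in WT (72 against 47 UMIs) and -0.40 in Pac1-/- (108 against 142 UMIs). The difference between the libraries was not tested, and it rests on 1 library of each genotype.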

How the results depend on the processing

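Over the alternatives, 85 of 112 values for the shares, counts, main list medians and Slfn5 stayed near their first value and 27 moved. Near means within 1.5 times for a count and within the first value's 95% interval otherwise, for a list median between the medians of its genes' interval bounds. Of 216 values for the named genes 198 kept their direction and stayed past the fold, 17 fell short of it and 1 reversed. Where values moved, the cause was not tested unless stated. With Txnip-high cells taken from 2 Txnip UMIs, they were 4.05% of kept WT and 7.52% of kept Pac1-/- barcodes; from 5 UMIs, 0.643% and 2.43%; thinned to 3000 UMIs, WT had 1.84%. From 5 UMIs, which left 577 genes to compare, 5 were higher and 29 lower, the Pac1-/- medians were -0.83 (immediate-early), -1.13 (NF-kB) and -1.38 (effector), Dgat1 reversed to 0.10, and 212 genes were lower between genotypes. Against cells with 0 or 1 Txnip UMI, 47 were lower. Matched on detected genes, 13 were higher, with Pac1-/- medians of -0.38, -0.68 and -0.49 for the same lists and Slfn5 at 0.72. With all Txnip-0 cells weighted by depth, the immediate-early and effector medians in Pac1-/- were -0.55 and -0.83. Without predicted doublets the WT effector median was -0.33. Scaled by the median, 18 were higher, the Pac1-/- effector median was -1.13 and that of mitochondrially encoded genes reversed to -0.051. At 2-fold, 2 were higher and 11 lower. With a minimum of 50 UMIs 128 were higher and 97 lower (43.1% of calls lower), and with 200 UMIs 5 and 54 (91.5%). With genotypes matched on UMIs, 183 genes were higher in Pac1-/-. Cd74 reversed to -0.083 without cells rich in markers of other cells. Depth limits genes under 100 UMIs and shallow cells. No paired analysis was possible because each genotype had 1 library, so that the groups shared fewer than 2 replicate numbers.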

Other observations

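Among genes in no list, several others stood lower in the Txnip-high cells of both libraries. Pim1, a kinase induced by cytokine receptors, had log2 ratios of -0.86 in WT and -1.16 in Pac1-/-. Hilpda, a lipid droplet protein induced by hypoxia, had -0.82 and -1.66, and Cdkn1a, the cell cycle inhibitor p21, -0.88 and -1.35. Gpr183, a receptor for oxysterols that guides lymphocyte position, had -0.66 and -1.19, and Il2rb, a chain of the receptors for IL-2 and IL-15, stood at 90.7 against 151 CPM in WT and 33.6 against 67.3 in Pac1-/-. Orai1, the pore of the store-operated calcium channel, had -1.13 and -0.99. Among the higher genes were Ptprcap, a partner of CD45 (0.70 and 1.10), Itgal, the integrin chain of LFA-1 (0.70 and 0.62), and Csk, the kinase that restrains Src family kinases (0.76 and 0.71). These genes were chosen after their values were seen.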
